A study of Capra hircus with 2 samples.

Results

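miR-375 was followed in the mammary gland of dairy goats (Capra hircus) through 55 distinct tag sequences of its 3p arm, out of 504338 distinct sequences in the series. These tags numbered 37223 of 7385833 clean tags in the early involution library and 3758 of 18031615 clean tags in the early lactation library. The early involution library represents gland collected on day 5 after forced weaning, on day 218 after parturition. The early lactation library represents gland collected on day 10 after parturition. Each library is 1 pool of equal parts of RNA from 5 goats of that stage, so no spread between animals was measured and no test between the stages was possible. Weaning and the time since parturition differ together between the libraries and cannot be told apart. All intervals are 95% intervals that cover counting error only. They treat tags as independent, and PCR copies of a molecule could not be recognised, so they may be too narrow.

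MicroRNAs are RNAs of about this size that are loaded into Argonaute proteins and pair through their seed, bases 2 to 8, with messenger RNAs, which are then repressed. miR-375 is best known from pancreatic islets, where it limits insulin secretion in mice. In human breast it is abundant in luminal cancers that express the oestrogen receptor. It comes from a hairpin precursor whose 3p arm gives the functional strand in the tissues where it has been studied.

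The members were found by the conserved miR-375 seed, TTGTTCG, which was taken from general knowledge. It stood at bases 2 to 8 of 38756 tags in involution and 5186 in lactation, in 272 distinct sequences. The commonest of these in both libraries summed served as the reference, and members were exact matches of 18 nt or more whose 5' end lay on the reference's first base or up to 6 bases inside it, with no more than 3 extra bases at the 3' end. miR-375 was selected from a measured ratio between these libraries known beforehand, so its level and ratio are given as a description. The reference and the forms on which the results turn are shown with the base or bases of interest in capitals, all read from the deposited tags.
Reference, seed in capitals: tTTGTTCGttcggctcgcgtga
21 nt, last base in capitals: tttgttcgttcggctcgcgtG
20 nt, last base in capitals: tttgttcgttcggctcgcgT
19 nt, last base in capitals: tttgttcgttcggctcgcG
Added A in capitals: tttgttcgttcggctcgcgtgaA
Added T in capitals: tttgttcgttcggctcgcgtgaT
Last base T in capitals: tttgttcgttcggctcgcgtgT
G at base 20 in capitals: tttgttcgttcggctcgcgGga
C at base 17 in capitals: tttgttcgttcggctcCcgtga
Lacking 1 base, shifted seed in capitals: tTGTTCGTtcggctcgcgtga
1 further T, shifted seed in capitals: tTTTGTTCgttcggctcgcgtga

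miR-375-3p was far more abundant in involution. Its level was 5040 RPM (clean tags of a sequence per 1000000 clean tags) in involution (4989 to 5091), against 208 in lactation (202 to 215). The ratio of involution to lactation was 24.2 (23.4 to 25.0). It thus made up 0.504% of all clean tags in involution and 0.0208% in lactation. The reference sequence alone counted 31167 tags in involution and 3065 in lactation, 83.7% and 81.6% of the members of each library, with a ratio of 24.8 (23.9 to 25.8). Library factors in place of clean tags gave a ratio of 16.3 (median-of-ratios) or 18.7 (TMM). The libraries come from whole gland, where more cells of a type and more RNA per cell cannot be told apart.

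For comparison, 155 sequence families with a conserved miRNA seed were built from the tags in the same way, and 140 of them reached 10 RPM in at least 1 library. Of these, 64 were at least 2-fold higher in involution with the whole interval above 1, or 45.7%, and 9 were at least 2-fold lower, or 6.43%. Their median log2 ratio was 0.80, and that of miR-375 was 4.60, the 6th highest of the 140. Median-of-ratios factors shifted every log2 ratio by -0.57 and gave a split of 51 higher and 26 lower. TMM factors shifted it by -0.37 and gave 53 higher and 20 lower. By level, miR-375 stood 15th of 155 in involution and 63rd in lactation.

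**Figure D1:**
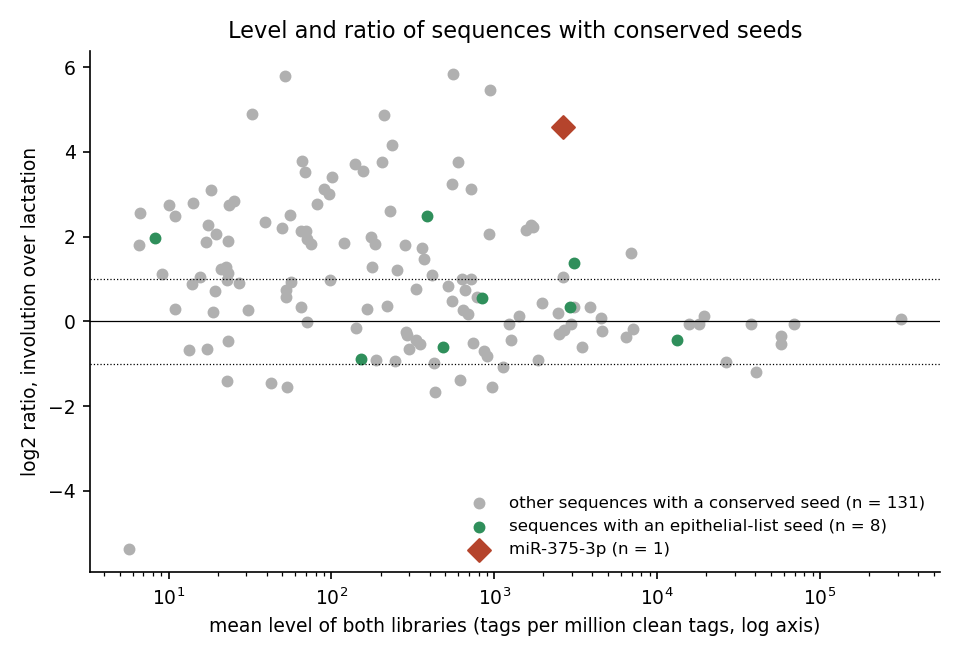
Log2 ratio of involution over lactation (vertical) against the mean level of both libraries in tags per 1000000 clean tags (log axis), 1 point per sequence family with a conserved seed and at least 10 RPM in 1 library. Dotted lines mark 2-fold differences; miR-375-3p, the diamond, lies at a log2 ratio of 4.60, above every sequence with a seed of the epithelial list.

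Its neighbours in level changed with the stage. In involution the next above were a sequence with the miR-30 seed at 6643 RPM and one with the miR-126-3p seed, an endothelial miRNA, at 5583. The next below in involution were a let-7 sequence at 4634 and one with the seed shared by miR-141 and miR-200a, miRNAs of epithelial cells, at 4455. In lactation the next above were sequences with the miR-181 seed at 247 and the miR-7 seed at 246, and the next below were those with the miR-183 seed at 197 and the miR-17 seed at 195. The interval of miR-375 in lactation overlapped that of the miR-183 sequence (191 to 204) but not that of the miR-17 sequence (188 to 201).

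The 5 families nearest to miR-375 in ratio, among 99 with at least 100 RPM in a library, are shown with their seeds in capitals. The likeness is the distance in log2 ratio over 2 libraries.
miR-135 seed: tATGGCTTtttattcctatgtga
miR-19 seed, first sequence: tGTGCAAAtccatgcaaaactga
miR-19 seed, second sequence: tGTGCAAAtctatgcaaaactga
miR-30 seed: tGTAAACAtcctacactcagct
miR-15/16 seed: tAGCAGCAcagaaatgttggt
The miR-135 sequence was nearest, with 407 RPM in involution and 13.98 in lactation, a ratio of 29.1 and a distance of 0.27. The miR-19 sequences, members of clusters known for promoting proliferation, had ratios of 18.0 and 13.8. The miR-30 and miR-15/16 sequences had ratios of 13.6 and 13.5. miR-375 was more abundant than each of these 5 in both libraries, the next being the miR-30 sequence at 1108 RPM in involution and 81.3 in lactation.

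The miRNAs of a list of epithelial markers, taken by seed, did not share this difference. Summed over the list, the level was 21127 RPM in involution and 21067 in lactation, a ratio of 1.003 (0.997 to 1.009). That ratio was 0.677 under median-of-ratios scaling and 0.773 under TMM. Set against this sum within each library, which needs no scaling between libraries, miR-375 had 23.9 tags per 100 epithelial-list tags in involution and 0.989 in lactation. Of the 7 seeds of the list, 6 reached 10 RPM, 3 of them at least 2-fold higher in involution and none lower. Over all 90 seed groups that reached this level the shares were 42.2% higher and 4.44% lower. The median log2 ratio of the list was 0.45, against 0.76 over the 90 seed groups; the list's median turned to -0.12 with median-of-ratios factors and was 0.07 with TMM factors.

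Within the list, the seed of miR-205, a miRNA of basal cells and keratinocytes, stood closest to miR-375, at 655 RPM in involution and 117 in lactation, 5.60 times (5.32 to 5.90). The seed of miR-96, which miR-1271 shares, had 97 tags in involution and 60 in lactation and a ratio of 3.95 (2.83 to 5.54). The miR-141/200a seed was at 5457 RPM in involution and 2389 in lactation, a ratio of 2.28 that was 1.54 under median-of-ratios scaling and 1.76 under TMM. The 2 sequences summed there had log2 ratios of 1.38 and 0.56. The most abundant of the list, the seed of miR-200b, miR-200c and miR-429, was at 14509 in involution and 17776 in lactation, a ratio of 0.816 (0.811 to 0.822). It sums 2 sequences that went opposite ways, with log2 ratios of -0.43 and 0.34. The seeds of miR-182 and miR-183 had ratios of 0.660 and 0.544, unlike that of miR-96, which lies in the same genomic cluster of mammals. The miR-182 and miR-183 seeds were both over 2-fold lower with median-of-ratios factors, miR-183 also with TMM factors. For miR-203 no family with at least 50 tags was found.

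**Figure D2:**
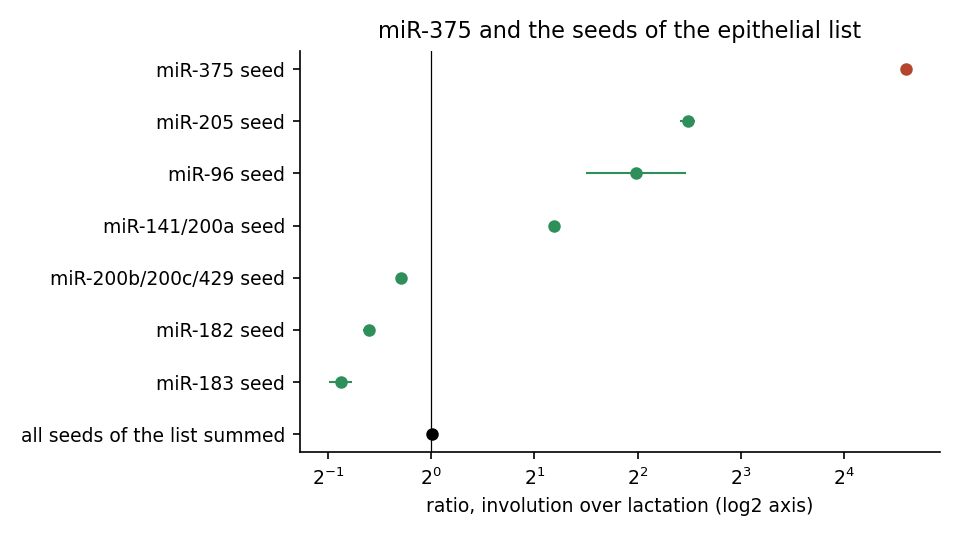
Ratio of involution over lactation on a log2 axis for miR-375 and for each seed of the epithelial list that was found, with 95% counting intervals, and for the sum of the list. miR-375 lies at 24.2, the list's seeds between 0.544 and 5.60, and their sum at 1.003.

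Marker seeds of other cell types moved to different degrees, and their part in the miR-375 difference was not tested. The counts of higher seeds stand beside the 42.2% of all 90 seed groups that were at least 2-fold higher, and rest on few seeds each. The summed leukocyte seeds were at 1640 RPM in involution and 1370 in lactation, with 4 of the 5 seeds measured at least 2-fold higher and a median log2 ratio of 2.51. The remaining seed, that of miR-155, a miRNA of activated lymphocytes and macrophages, was at 649 RPM in involution and 1152 in lactation, a ratio of 0.564 (0.546 to 0.582), and held 20776 of the 24696 leukocyte-list tags of lactation. It was more than 2-fold lower under median-of-ratios and under TMM scaling. The ratio of the leukocyte sum was 1.20, or 0.808 under median-of-ratios scaling and 0.923 under TMM. The summed erythroid seeds were at 3168 in involution and 923 in lactation, with 2 of 3 higher. Among them the miR-144 seed was at 62.7 RPM in involution and 2.11 in lactation, a ratio of 29.7 (21.3 to 42.6). The ratios of the miR-451 and miR-486 seeds were 4.68 and 0.837. The stromal seeds summed to 322376 in involution and 310637 in lactation. Of these, 2 of 5 were higher, miR-145 at a ratio of 8.77 and miR-214 at 11.6, and none lower. The miR-143 seed, with a ratio of 1.03, held 2364697 of the 2381013 stromal-list tags of involution. The endothelial sum was 7090 in involution and 7577 in lactation, with 1 of 2 higher. Its 2 seeds are those of the 2 arms of miR-126, with ratios of 0.773 for the 3p arm and 4.20 for the 5p arm. The muscle list rested on the seed that miR-1 carries, at 1086 in involution and 1464 in lactation. Seeds of miRNAs known from neurons and endocrine cells summed to 534 in involution and 334 in lactation. Of these, miR-9 was higher at 65.4 against 12.8, miR-184 lower at 22.9 against 62.4, and miR-7 stood at 446 against 258. No family was found for miR-124, miR-129 and miR-153 of that list, for miR-142-5p or for miR-133, where a family needed a commonest sequence of 20 to 24 nt with at least 50 tags.

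The other arm of the precursor was nearly absent. The conserved miR-375-5p seed, CGACGAG, stood at bases 2 to 8 of 148 tags in involution and 268 in lactation. Of these, 1 tag in involution and 0 in lactation also carried the bases that pair with bases 12 to 17 of the 3p sequence. With the seed and the pairing bases allowed at any position of a tag, the counts were 7 in involution and 1 in lactation. For tags with the seed at bases 2 to 8, the count of 0 allows up to 3 tags, or 0.166 RPM in lactation. The commonest sequence with that seed, at 46 tags in involution and 59 in lactation, did not pair, and no ratio between stages was formed for this arm. The 5p seed was taken from general knowledge of other mammals, so a goat sequence that departs from it would be missed.

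The 3' ends differed in composition between the stages. Tags shorter than the reference at the 3' end made up 7.48% of miR-375-3p in involution (7.22 to 7.76%) and 5.40% in lactation (4.70 to 6.17%). Tags that ended 1 base short were 5.63% in involution and 3.78% in lactation. Ends 2 bases short, after the T at base 20, numbered 551 tags in involution and 1 in lactation, or 1.48% (1.36 to 1.61%) and 0.0266% (0.000674 to 0.148%). Their ratio between stages, 1345, has an interval of 240 to 53228 because of the single lactation tag. Ends 3 bases short went the other way, with 128 tags or 0.344% in involution and 55 tags or 1.46% in lactation. The 20-nt form was thus commoner than the 19-nt form in involution and rarer in lactation.

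**Figure D3:**
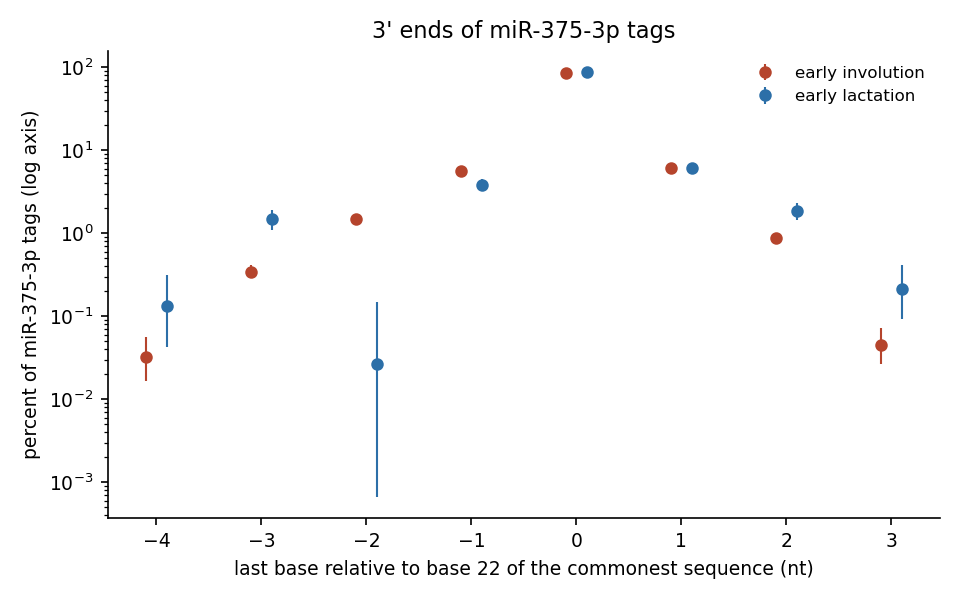
Share of miR-375-3p tags (percent, log axis) by the position of the last base relative to base 22 of the commonest sequence, with 95% counting intervals, early involution left of early lactation at each position. The full-length end holds 85.4% of tags in involution and 86.4% in lactation, and the end 2 bases short holds 1.48% and 0.0266%.

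Longer tags were a slightly smaller share in involution and differed in the bases added. They made up 7.09% of the members in involution (6.83 to 7.35%) and 8.22% in lactation (7.36 to 9.15%). A single added A was the commonest addition, at 1470 tags or 3.95% in involution and 187 tags or 4.98% in lactation. A single added T was found on 730 tags or 1.96% in involution (1.82 to 2.11%) and on 26 tags or 0.692% in lactation (0.452 to 1.01%). Among longer tags, additions that began with T took 29.5% in involution (27.8 to 31.3%) and 8.74% in lactation (5.84 to 12.5%), while additions of A alone took 62.5% (60.7 to 64.4%) and 74.1% (68.8 to 78.9%). Outside the members, 22-nt tags with T in place of the last A, which equal the 21-nt form with an added T, numbered 891 in involution and 50 in lactation, or 2.86 and 1.63 per 100 reference tags. No goat hairpin sequence was used here, so additions copied from the precursor and additions made after cleavage were not told apart.

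Variants at the 5' end, which move the seed, were a smaller part of the pool in involution. Tags lacking 5' bases made up 1.96% in involution (1.83 to 2.11%) and 5.48% in lactation (4.78 to 6.26%), nearly all of them lacking 1 base, with 697 tags in involution and 202 in lactation. Their level was 94.4 RPM in involution and 11.2 in lactation, so the shifted form was 8.42 times more abundant (7.19 to 9.90), against 24.8 for the reference. Tags lacking 2 bases numbered 26 and 4, and none lacked 5 or 6. Tags with 1 further base at the 5' end, outside the members, numbered 735 in involution and 104 in lactation. The further base was T on all 104 of these in lactation, and T on 680, A on 29 and C on 26 in involution.

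Among 76 families with at least 1000 tags in both libraries, miR-375 had a tight 3' end and a looser 5' end. Its share of shorter tags ranked 58th from the highest in involution and 56th in lactation, where the medians of the families were 17.002% and 17.6%. Its share of longer tags ranked 61st and 49th, with medians of 16.9% and 11.6%. Its share lacking 5' bases ranked 20th in involution and 11th in lactation, with medians of 0.868% and 0.368%. The difference in that share, lower in involution by 3.52 percentage points for miR-375, ranked 75th of 76, and the median difference was 0.336 points in the other direction. The differences in 3' shares were not extreme among the 76. Involution minus lactation, the shorter share differed by 2.08 points and ranked 30th, within a range of -50.7 to 21.9. The longer share differed by -1.14 points and ranked 55th, within a range of -39.2 to 28.8.

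Tags that differ from miR-375-3p at base 20 did not follow the reference between the stages. The origin of these tags was not tested and is unknown, since no genome was used here. They are called forms of miR-375 only because all their other bases match it. Positions are counted from 1 at the 5' end of the reference, and the reference base is written first. The T20G form of 22 nt had 526 tags in involution and 994 in lactation, or 71.2 and 55.1 RPM, a ratio of 1.29 (1.16 to 1.44) beside 24.8 for the reference. It amounted to 1.69 per 100 reference tags in involution and 32.4 per 100 in lactation. The form G17C had 19 tags in involution and 156 in lactation, 0.0610 and 5.09 per 100 reference tags, and a ratio of 0.297 (0.174 to 0.480). All other substitutions at bases 1 to 21 together came to 1.38 per 100 reference tags in involution and 4.27 in lactation.

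**Figure D4:**
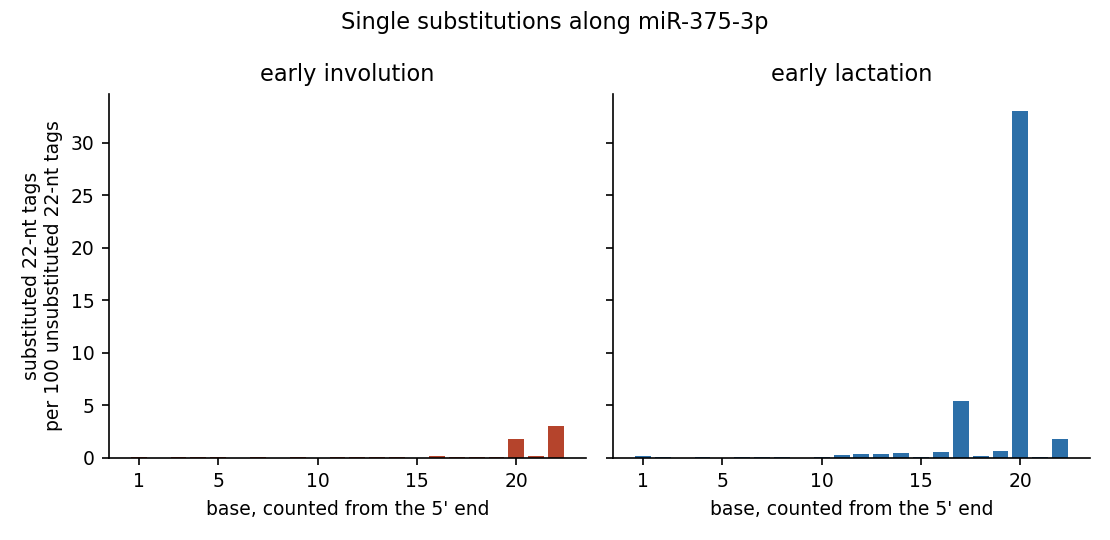
Tags of 22 nt with a single substitution, per 100 unsubstituted 22-nt tags, at each base of miR-375-3p counted from the 5' end, early involution left and early lactation right. In lactation base 20 reaches 33.1 and base 17 reaches 5.42, and in involution base 20 reaches 1.76 and base 22 reaches 3.02.

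Tags with G at base 20 were also found at other lengths. Counting every tag that reached base 20, those with G there numbered 608 in involution and 1107 in lactation, 1.64% (1.52 to 1.78%) and 24.1% (22.8 to 25.3%) of the tags with T or G at that base. Of the tags with G, 86.5% had 22 nt in involution and 89.8% in lactation, beside 85.7% and 87.7% of the tags with T. With G at base 20, tags of 20 nt numbered 13 in involution and 2 in lactation, and tags of 21 nt 35 and 38. Added to the members, tags with G at base 20 lowered the ratio of involution to lactation to 18.98 (18.4 to 19.6), and a rule that allowed any 1 mismatch outside the first 8 bases gave 18.2 (17.6 to 18.7). Those ratios treat the substituted tags as miR-375, which was not established.

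In the other families compared, T-to-G substitutions were rare. Among 57 families with at least 1000 tags in both libraries and no other family 1 base away over the first 20 bases, miR-375 had the highest T-to-G substitution inside bases 9 to the next to last in each library. The highest of the other 56 was 0.767 per 100 reference tags in involution and 1.36 in lactation, with medians over the 57 of 0.0464 and 0.0126. Of the families left out for a neighbour 1 base away, a let-7 family reached 1.06 in involution. A family with the miR-141/200a seed, also left out, reached 2.19 in lactation. For substitutions of any kind miR-375 ranked 8th in involution and 3rd in lactation. The pair ahead of it in lactation carried the seeds of miR-23 and miR-27, at T19A with 69.5 and T19C with 43.8 per 100. Each has known sister miRNAs that differ at a single base. A to C at base 14 led in lactation in many of the 57, among them families with miR-7, miR-191, miR-145 and miR-126-3p seeds. It came there to 1.56, 1.36, 1.26 and 0.447 per 100 reference tags, while other substitutions led in involution.

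**Figure D5:**
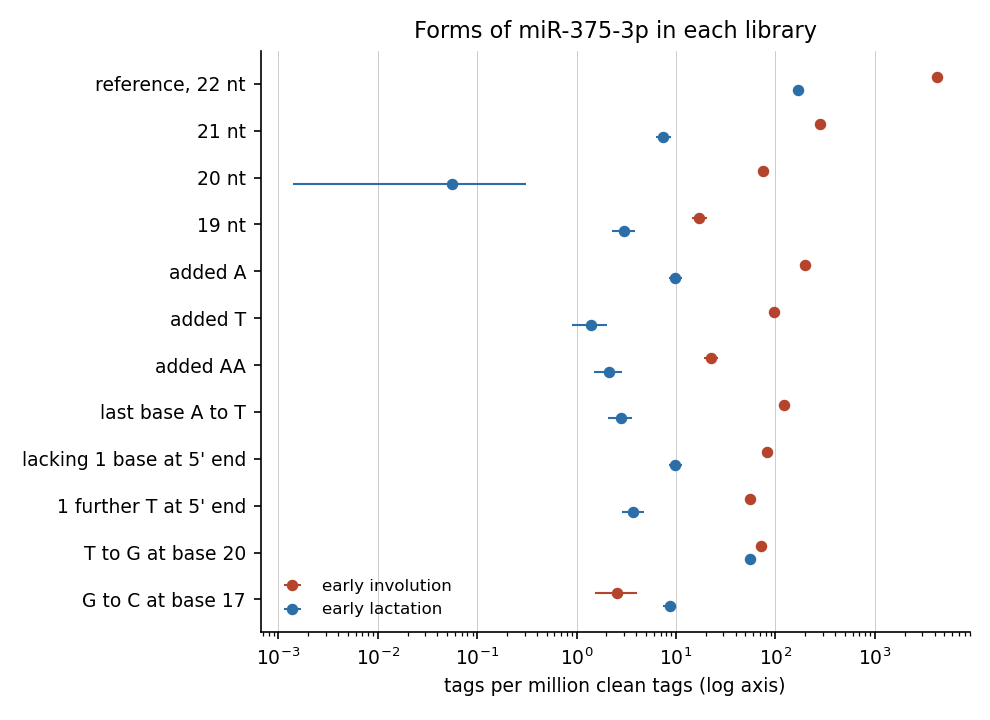
Level of 12 forms of miR-375-3p in tags per 1000000 clean tags (log axis) with 95% counting intervals, early involution drawn above early lactation in each row. The members, the form with the last base changed and the form with 1 further T are higher in involution, the T20G form is at 71.2 in involution and 55.1 in lactation, and the G17C form at 2.57 and 8.65.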

How the data were processed

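Small RNA of 18 to 30 nt was sequenced in 2 libraries, per the labels' protocols. The deposited files hold raw counts of distinct clean tags; per the deposited description the authors filtered on read quality, cut the 3' adaptor and discarded 5' adaptor products, polyA and short tags. Their software is not given here. Tags reached 44 nt in both libraries.

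No miRNA reference sequence was used here, although the planned comparison assumed one. Families were therefore built from the tags: the commonest sequence of 20 to 24 nt with at least 50 tags and 1 of 103 conserved 7-base seeds, leaving out sequences that shared the first 18 bases, were shifted, or differed by 1 base from one at least 20 times commoner. Tags that matched more than 1 family were set aside (2.24% of clean tags in involution, 0.861% in lactation). Families and seeds are named by seed. Ratios between the libraries have conditional Clopper-Pearson intervals, levels exact Poisson and shares exact Clopper-Pearson intervals.

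Named families are those of the epithelial list, the 5 nearest to miR-375 in ratio and its 2 neighbours in level on each side. Named after their values were seen were the T20G and G17C forms, the leading end variants and the families given for their substitutions. The same holds for the neuroendocrine, erythroid, endothelial and stromal seeds given singly and for miR-155. Of the stromal list, miR-10b and miR-152 were not summed, and no list of milk miRNAs was used. The members, seeds and lists were chosen with earlier results of these data known. Alternatives covered scaling (edgeR TMM, median-of-ratios, other denominators), assignment and level filters. The ratio, its interval and the 2-fold call were tested on simulated Poisson counts with known folds. Family building, end variants, substitutions and scaling were not simulated. Python 3.11.15, numpy 2.4.6, scipy 1.17.1, matplotlib 3.10.9, R 4.3.3 and edgeR 4.0.16 were used.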

Additional observations from a re-analysis of the deposited data

Results flagged for a closer look

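Signals that lie outside the member rule were found above the level that a count of 0 allows. The T20G form was at 71.2 RPM in involution and 55.1 in lactation. The G17C form was at 2.57 in involution and 8.65 in lactation. Tags with 1 further base at the 5' end were at 99.5 in involution and 5.77 in lactation.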

How the results depend on the processing

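miR-375-3p stayed higher in involution under all 12 alternatives, with ratios from 16.3 to 25.8. The ratio left its counting interval with assigned miRNA tags as the denominator (25.8), median-of-ratios factors (16.3), TMM factors (18.7), tags starting at the first base alone (25.1), the first 18 bases with any further bases (19.4) and 1 mismatch allowed (18.2); with the T20G tags, added after seeing the data, it was 18.98. A minimum of 100 RPM left 99 families, 42 of them higher (42.4%) and 5 lower (5.05%), against 64 (45.7%) and 9 (6.43%) of 140. The families lower numbered 26 of 140 with median-of-ratios factors, 20 of 140 with TMM factors, 15 of 130 with identical tags alone and 14 of 155 with no minimum level. Over 660 families with any seed, an alternative added after seeing the data, 231 were higher and 32 lower. The differences in end shares stayed within their counting intervals under the alternatives tried. Counts below 3 tags in lactation limit what can be said of the 20-nt form and the 5p arm. No other scaling was applied to the 5p arm, for which no ratio was formed. No paired analysis was possible because each stage has 1 library.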

Other observations

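The reference miR-375-3p sequence holds 4 CG dinucleotides in 22 bases, against a median of 0 over the 155 families. With miR-375 included, 2 of the 155 hold 4, and none holds more. Tags that carried miR-375-3p with more than 3 further bases after it numbered 27 in involution and 7 in lactation, and tags with 4 or more further bases before it 8 and 6. Additions of TT were found on 35 tags in involution and 0 in lactation, and of C on 22 and 0.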
